A study of Homo sapiens with 24 samples.

Results

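The expression levels of genes in the HCT116 lines were set against those in the RPE1 lines, across both kinds of cell and irrespective of the gained chromosomes. A gene was called lineage-specific when its level in both tables of one lineage lay at least 3 log2 units, or 8-fold, above its level in both tables of the other. By this rule 325 genes were higher in HCT116 (2.48% of the 13104 genes listed in all 4 tables) and 319 were higher in RPE1 (2.43%), while 12460 were neither. A further 1434 genes were listed in both HCT116 tables and in no RPE1 table (8.57% of the 16738 genes in any table), and 727 were listed in both RPE1 tables and in no HCT116 table (4.34%). Since the genes were chosen by these same levels, the deposited means of each table, their differences are given as a description and no test was made.

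HCT116 is a human colon carcinoma line with a modal number of 45 chromosomes, and RPE1 is a line of the pigmented epithelium of the retina, immortalised with hTERT, with a modal number of 46. Each table joins 3 libraries of an aneuploid line and 3 libraries of the line it was made from: HCT116 5/4 with 4 copies of chromosome 5 and HCT116, HCT116* 8/3 c7 with 3 copies of chromosome 8 and HCT116 carrying H2B-GFP, RPE1 5/3 12/3 with 3 copies of chromosomes 5 and 12 and RPE1, and RPE1* 21/3 with 3 copies of chromosome 21 and RPE1 carrying H2B-GFP. The asterisk marks a stable histone H2B fused to green fluorescent protein. The aneuploid lines were obtained by transfer of single chromosomes in microcells, the second gain of RPE1 5/3 12/3 arose spontaneously, and the c7 line is 1 clone. HCT116 5/4 came from another laboratory, and all lines were kept in DMEM with fetal calf serum. The value used is the mean of all 6 libraries of a table, so that aneuploid and parental cells cannot be told apart in it, and values of single libraries, and with them an error of each mean, were not analysed here. The tables were normalized separately by the authors and were then brought to a common median of 564 over the shared genes, and this scaled mean is the level given for every gene below. The table of HCT116 5/4 is named before that of HCT116* 8/3 c7, and the table of RPE1 5/3 12/3 before that of RPE1* 21/3. In whole cultures, fewer cells with an RNA and less RNA per cell cannot be told apart.

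Cells of epithelial sheets are held together by cadherins, claudins and desmosomal proteins and build their inner skeleton from keratins. Mesenchymal cells, in contrast, contain vimentin, carry N-cadherin and deposit fibronectin and fibrillar collagens, and transcription factors of the SNAI, ZEB and TWIST families are known to repress the epithelial genes. HOX genes, which lie in 4 clusters, keep a record of the position along the body axis from which a cell descends. The colon derives from the posterior gut, whereas the pigmented epithelium of the retina derives from the anterior neural plate.

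The difference between the 2 tables of one lineage served as the yardstick. Its median over the 13104 shared genes was 0.21 log2 units between the HCT116 tables and 0.17 between the RPE1 tables, against 0.62 between the lineage means. The log2 levels of the HCT116 tables correlated with a Pearson's r of 0.977 and those of the RPE1 tables with 0.987, while tables of different lineages gave 0.791 to 0.815; these are across genes, which are not independent replicates. The lineage means of 68.1% of the genes lay within 1 log2 unit of each other. A difference of 3 log2 units or more was found for 45 genes between the HCT116 tables and for 13 genes between the RPE1 tables, and for 865 genes between the lineage means. Of these 865, 221 were not called, because 1 table of a lineage lay too close to the other lineage.

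**Figure D1:**
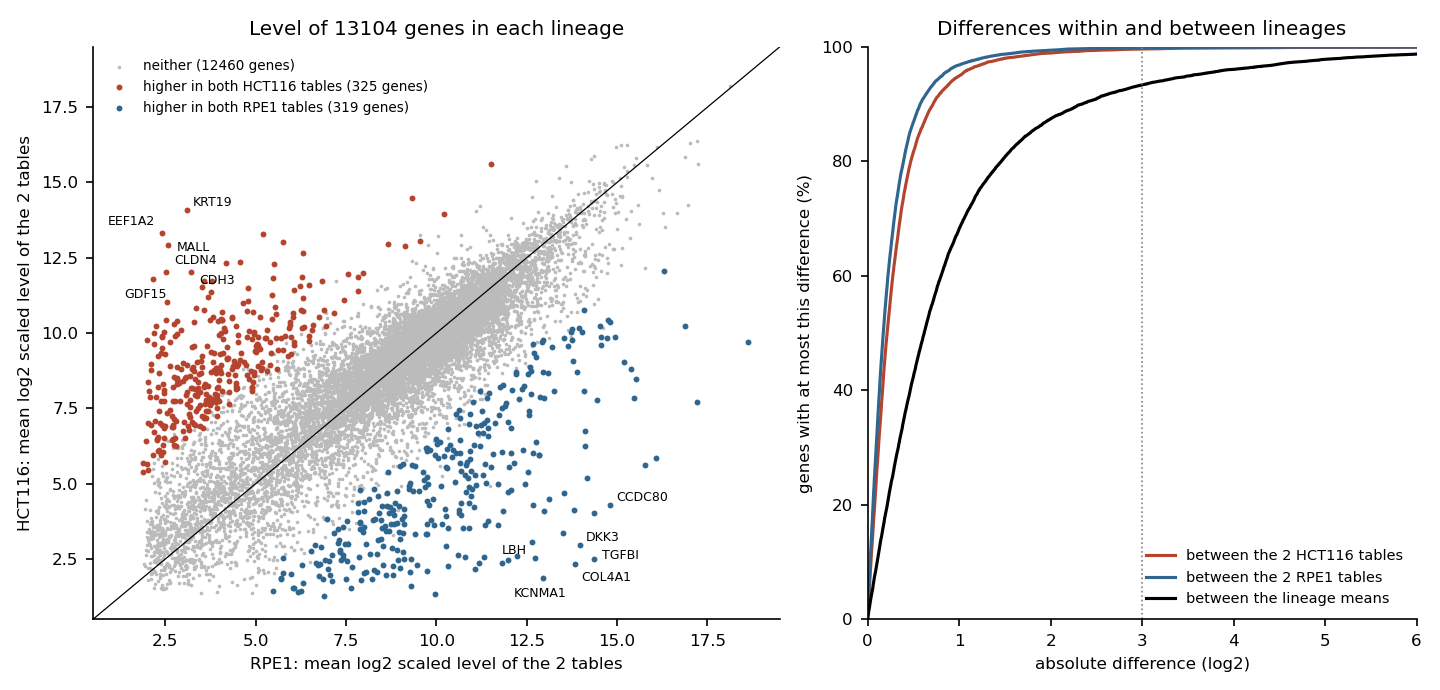
The left panel plots the mean log2 scaled level of each of 13104 genes in the 2 HCT116 tables (vertical) against that in the 2 RPE1 tables (horizontal), with the called genes in red (325) and blue (319) and the line of equal level. The right panel plots the share of genes (%) at or below each absolute log2 difference, where the curve between the lineage means runs far to the right of both curves within a lineage and the dotted line marks 3 log2 units.

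The labels were first checked against the genes that define them. Of 8 genes in the list for this check, none was called in either direction, which is near the shares of all shared genes (2.48% and 2.43%). HIST1H2BJ, a histone H2B gene, had levels of 8.48 and 664 in the HCT116 tables and 15.4 and 21738 in the RPE1 tables, high in the 2 tables of H2B-GFP cells and low in the other 2. TERT, the catalytic subunit of telomerase that was introduced into RPE1, had 37.5 and 90.5 in the HCT116 tables and 153 and 114 in the RPE1 tables, so that the RPE1 tables were above the HCT116 tables by 0.34 to 2.03 log2 units. Of 15 markers of the intestine, CDX2, the master regulator of intestinal identity, was listed in the HCT116 tables only (314 and 354), as were HNF4A (163 and 144), KRT20 (37.9 and 46.1) and CDH17 (4.12 and 5.42). Another 4 were listed in HCT116* 8/3 c7 alone, and 7, with VIL1 and CEACAM5 among them, in no table.

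Among 20 markers of the retinal pigment epithelium 13 were listed, of which 4 lay on the RPE1 side, 1 on the HCT116 side, 6 were neither and 2 were listed in 3 tables. The median difference of the 9 shared markers was 1.06 log2 units, with HCT116 above RPE1. MITF, the regulator of pigment cells, was higher in RPE1 (62.7 and 56.1 against 1427 and 1345), as was RDH5 (5.4 and 6.15 against 51.7 and 57), a retinol dehydrogenase of the visual cycle, and OTX2 (709 and 501) and RLBP1 (32.2 and 5.7) were listed in the RPE1 tables only. RPE65, the isomerase of the visual cycle, was instead higher in HCT116 (267 and 175 against 10.3 and 5.48). The pigment enzymes TYR, TYRP1 and DCT were listed in no table, and neither were TTR, RGR, OCA2 and TRPM1. The cells are accordingly called by the name of the line.

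The genes with the largest gaps in favour of HCT116 were led by EEF1A2 and KRT19. EEF1A2 (chr20:62119366-62130592 on GRCh37, - strand), which codes for a translation elongation factor normally restricted to muscle and nerve, had 10264 and 10074 in the HCT116 tables and 4.82 and 5.75 in the RPE1 tables, a gap of 10.78 log2 units between the lower HCT116 and the higher RPE1 value. KRT19 (chr17:39679869-39684560, - strand), a keratin of simple epithelia, had 17151 and 17358 in the HCT116 tables and 9.88 and 7.36 in the RPE1 tables and a gap of 10.76. Per kb of exon, KRT19 lay above 99.7% of the genes of both HCT116 tables and above 10.4% and 7.19% of those of the RPE1 tables. For both genes the 2 tables of a lineage differed by less than 0.5 log2 units.

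Next in order were MALL (5774 and 10367 against 5.14 and 6.88), a membrane protein of lipid rafts, and GDF15 (4067 and 3125 against 4.7 and 4.29), a secreted stress cytokine. CLDN4 (chr7:73213872-73247020, + strand), a tight junction claudin, had 3657 and 4778 in the HCT116 tables and 6.57 and 4.94 in the RPE1 tables. CDH3, or P-cadherin, had 3861 and 4588 against 10.1 and 8.44. The receptor FGFR4 had 2699 and 1595 against 5.85 and 5.76, with the HCT116 5/4 table above the HCT116* 8/3 c7 table. All 7 genes had RPE1 levels of 10.1 or less, close to the lowest means that the RPE1 tables list (3.22 and 3.89).

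The other members of the 20 largest gaps, taken among genes with a level of at least 100 in both tables of the high lineage, were ISYNA1, the first enzyme of inositol synthesis (5723 and 4534 against 17.8 and 18.1), C17orf28, FBXO2, MYEOV, the neuronal calcium sensor VSNL1, CYBA, the linker histone H1F0 (10545 and 9554 against 57.2 and 23.2), OLFM2, SPINT1, CRIP1, ESRP2, EPPK1 and RAC2. SPINT1, a membrane inhibitor of the protease ST14, had 2687 and 3261 against 16.7 and 7.68. RAC2, a GTPase known from blood cells, had 804 and 1131 against 5.24 and 5.37. Gaps of these 20 genes ran from 7.23 to 10.78 log2 units. Over all 325 genes the median gap was 4.08, and 89 genes had a gap of at least 5.

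On the side of RPE1, the largest gaps were led by COL4A1, KCNMA1 and CCDC80. COL4A1 (chr13:110801310-110959504, - strand), a chain of the basement membrane collagen IV, had 8.24 and 3.06 in the HCT116 tables and 9722 and 22348 in the RPE1 tables, a gap of 10.20 log2 units. KCNMA1, a calcium-activated potassium channel, had 6.7 and 1.96 against 7444 and 8461. TGFBI, a matrix protein induced by TGF-beta, had 14.7 and 2.13 against 32108 and 13710, with the RPE1 5/3 12/3 table more than 1 log2 unit above the RPE1* 21/3 table. GJA1 (chr6:121756741-121770873, + strand), the gap junction protein connexin 43, had 7.85 and 13.2 against 11143 and 12211. Of 2 secreted proteins known as Wnt antagonists, SFRP1 had 35.3 and 94.4 against 74723 and 65163. The other, DKK3, had 14.6 and 4.15 against 12817 and 20036.

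FN1 (chr2:216225163-216300796, - strand), which codes for fibronectin, had 1127 and 612 in the HCT116 tables and 365315 and 446745 in the RPE1 tables. VIM (chr10:17270240-17279592, + strand), the intermediate filament of mesenchymal cells, had 448 and 96.2 in the HCT116 tables and 173972 and 131733 in the RPE1 tables. Both genes lay above 99.9% of the genes of the RPE1 tables per kb of exon, and above 24.4% to 48.9% of those of the HCT116 tables. In the HCT116 tables they were thus listed at low to middle levels, in contrast to COL4A1, which was close to the lowest listed mean there. The collagen crosslinker LOX (26.3 and 11.8 against 11493 and 18018), the microfibril protein FBN1 (75.3 and 32.3 against 46564 and 66877) and the protease PAPPA (7.73 and 3.91 against 3310 and 4852) belonged to the same 20, together with CCDC80, LBH, CREB3L1, RAB34, PRR16, LAMA4, SPOCK1 and STC1. Gaps of these 20 ran from 8.16 to 10.20, and over all 319 genes the median was 4.26, with 115 genes at 5 or more.

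**Figure D2:**
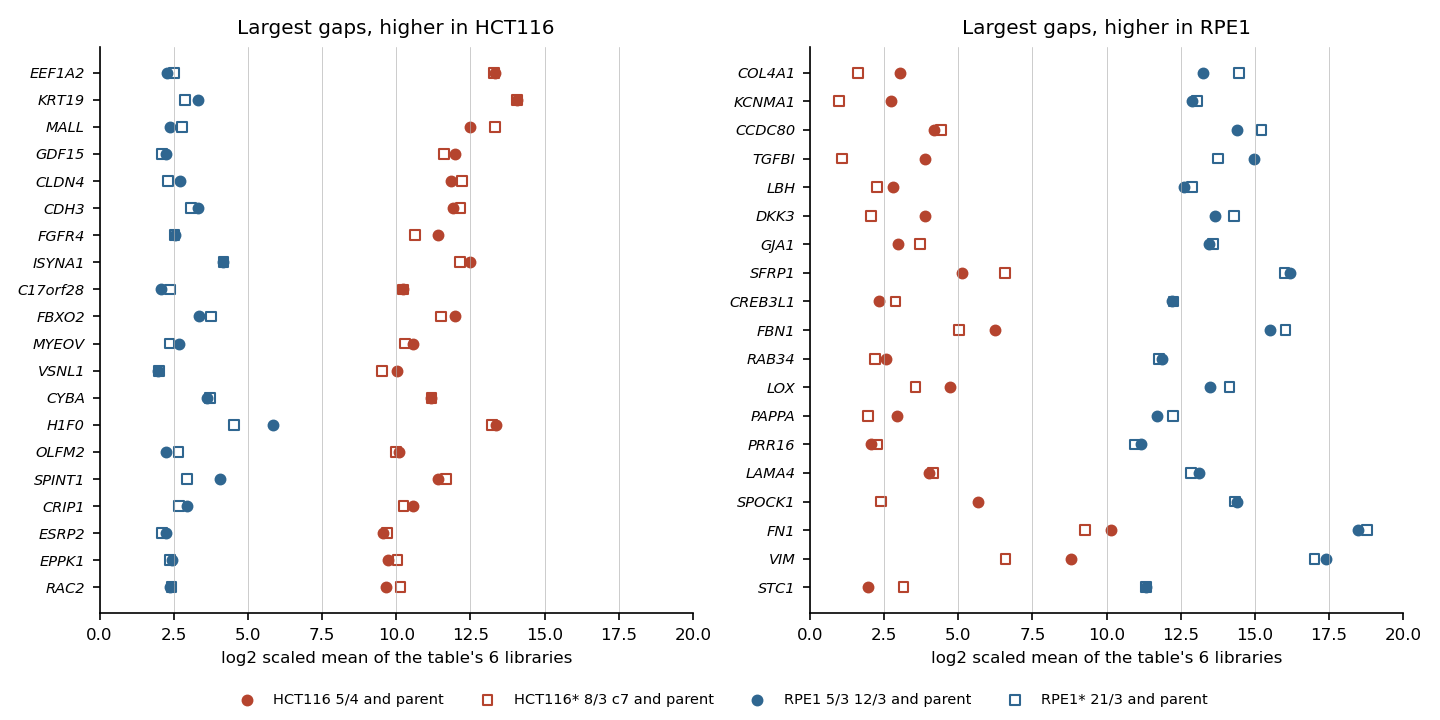
Dots and squares give the log2 scaled mean of a table's 6 libraries (horizontal) for genes among the 20 with the largest gap in each direction, HCT116 tables in red and RPE1 tables in blue. For EEF1A2 the red symbols lie near 13.3 and the blue ones between 2.27 and 2.52. The colours lie apart in every gene, as the rule that chose the genes requires.

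The threshold itself separated genes that hardly differed. The 3 genes just inside it in favour of HCT116 were SLC16A10 (gap 3.001), C10orf47 (3.011) and FAM46C (3.011), and just outside it were CISH (2.997), EGFL7 (2.996) and PAIP2B (2.996). In favour of RPE1, PEG10 (3.001), CTSC (3.014) and ST5 (3.017) were inside, and ZNF461 (2.995), ABCA1 (2.994) and LOC283050 (2.984) outside.

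Levels in the lineage in which a gene was low differed between the directions. The higher of both RPE1 values had a median of 16.8 over the genes higher in HCT116, whereas the higher of both HCT116 values had a median of 32.9 over the genes higher in RPE1. Of the former 20 were still at 100 or above in the low lineage, and of the latter 83. The median level in the high lineage, taken at its lower table, was 412 for HCT116 and 1175 for RPE1.

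Genes missing from the tables of one lineage have no value there and hence no fold difference. The lowest means that the tables list, scaled, were 3.13, 1.80, 3.22 and 3.89, and a gene not listed can have any level under or near them. The HCT116 tables list 15145 and 15607 genes, and 14506 and 14288 genes are listed for RPE1. Of the 1434 genes of the HCT116 tables only, 638 had a level under 10 in their lower table, whereas this was so for 197 of the 727 genes of the RPE1 tables only. At 100 or more the numbers were 302 and 250, and at 1000 or more 27 and 57, so that the order of the lineages turned with the level asked for.

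By scaled mean, which is not divided by length, the genes listed in HCT116 only were led by NTSR1, the neurotensin receptor (4371 and 6083), the cancer-testis antigen MAGEB2 (3101 and 3501), the splicing regulator ESRP1 (2926 and 3949), the protease ST14 (2694 and 4169) and RNF43 (2582 and 3545), a ubiquitin ligase that removes Wnt receptors. EVPL (2352 and 2442), MYH14, SFN and GTSF1 (2047 and 2297) were also among the first 10. In RPE1 only, by the same measure, the first were BEX1 (6006 and 6959), the carboxypeptidase inhibitor LXN (3822 and 3904), the cilium protein EVC (3774 and 3625), ADAMTSL1, SPG20, T-cadherin CDH13 (3092 and 2496), the fibroblast protease FAP (2689 and 2465), GDF6, a BMP-type ligand of eye development (2383 and 2792), WNT5A (2137 and 2273) and the guidance receptor ROBO1.

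Some of the widest differences fell into neither group, since the gene was listed in 3 tables. Such genes numbered 252 and 130 for both HCT116 tables with RPE1 5/3 12/3 or RPE1* 21/3, and 63 and 46 of them had a gap of at least 3 to the single value. For both RPE1 tables with HCT116 5/4 or HCT116* 8/3 c7 they numbered 110 and 143, with 59 and 42 at this gap. MMP2, a matrix protease, had 35.4 in HCT116 5/4 and 72761 and 64625 in the RPE1 tables. THY1, a surface protein of fibroblasts, had 3.62 in HCT116 5/4 and 10657 and 11607 in the RPE1 tables. The growth factor EREG had 5291 and 10824 in the HCT116 tables and 4.71 in RPE1 5/3 12/3. Neither of the former was listed in HCT116* 8/3 c7, and EREG was not listed in RPE1* 21/3.

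General epithelial genes lay on the HCT116 side, except for a pair of keratins. Of 16 genes, 3 were higher in HCT116 (KRT19, CLDN4 and ESRP2), 10 were listed in the HCT116 tables only, and EPCAM was listed in 3 tables (3903 and 5143, then 4.73 in RPE1 5/3 12/3). E-cadherin CDH1 (1569 and 2293), the transcription factors GRHL2 (604 and 1002) and ELF3 (962 and 2249), CLDN7 (1774 and 2710) and the trafficking GTPase RAB25 (688 and 1430) had no listed RPE1 value. KRT8 and KRT18, the keratins of simple epithelia, were neither. KRT8 had 58854 and 53991 against 19459 and 20009, and KRT18 had 26162 and 18699 against 12380 and 16061. Their lineage means differed by 1.51 and 0.65 log2 units.

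The wider list of junction and polarity genes held 38 listed genes. It had 11 higher in HCT116, 10 in the HCT116 tables only, 1 in the RPE1 tables only and 16 neither, with a median difference of 2.73 log2 units over the 27 shared genes, beside 0.03 over all genes. Polarity proteins MPP7 (2395 and 4739 against 8.06 and 23.4) and LLGL2 (2446 and 3150 against 91.7 and 47.7), cingulin CGN (632 and 826 against 26.8 and 42.6) and the desmosomal plakophilin PKP3 (1635 and 1816 against 76.3 and 76.7) were higher in HCT116. By contrast, the scaffold TJP1 (3533 and 3798 against 4261 and 4077), CLDN12 (846 and 854 against 804 and 857), desmoglein DSG2 (4378 and 5520 against 3626 and 5174) and plakophilin PKP2 (992 and 861 against 1151 and 1552) differed by less than 0.6 log2 units. CLDN1 was listed in RPE1 only (66.8 and 229), and so were CLDN10, CLDN11 and CLDN14 among the claudins.

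Mesenchymal markers were turned the other way. Of 20 genes, 6 were higher in RPE1, 5 were listed in RPE1 only, 6 were neither and 2 were listed in 3 tables, while S100A4, a calcium-binding protein counted as mesenchymal, was higher in HCT116 (7447 and 9324 against 57.2 and 50.6). N-cadherin CDH2 had 4.67 in HCT116 5/4 and 7496 and 9293 in RPE1. The PDGF receptor PDGFRB had 44.7 and 8.63 against 8530 and 5087, and PDGFRA was listed in RPE1 only (339 and 403). The actin-binding protein TAGLN had 73.2 and 80.0 against 11952 and 26109. COL1A2 was listed in RPE1 only and at 4.36 and 10.5, and COL3A1 was 3.36 and 11 against 43.1 and 24.5, so that these fibrillar collagens were low in every table, while COL1A1 was 642 and 768 against 3669 and 4163.

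**Figure D3:**
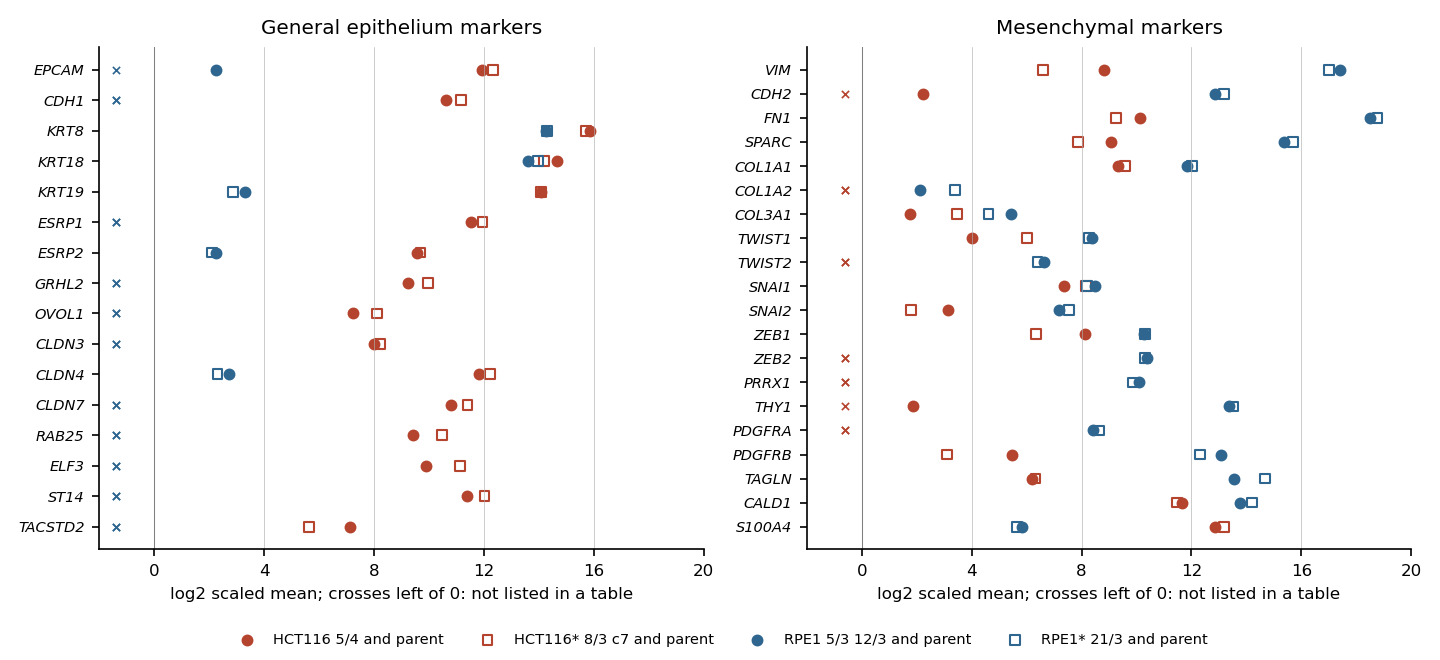
Levels of the 16 general epithelial and 20 mesenchymal markers are plotted as log2 scaled means of each table (horizontal), with crosses left of 0 for tables in which a gene is not listed, HCT116 in red and RPE1 in blue. Most epithelial genes show red symbols with blue crosses, KRT8 and KRT18 show all 4 symbols close together, and the mesenchymal genes show the blue symbols on the right except S100A4 and, in part, SNAI1.

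Of 10 transcription factors linked to the loss of epithelial features, 6 lay on the RPE1 side and 1 on the HCT116 side. Among them 5 were listed in RPE1 only, namely ZEB2 (1338 and 1259), PRRX1 (1083 and 924), TCF4 (1304 and 1068), FOXC2 (747 and 855) and TWIST2 (100.0 and 84.1). SNAI2 was higher in RPE1 (8.83 and 3.46 against 146 and 186). ZEB1 was 281 and 81.7 against 1223 and 1259 and missed the threshold through HCT116 5/4, TWIST1 was 16.1 and 64.3 against 334 and 309 and missed it through HCT116* 8/3 c7, and SNAI1 was 165 and 284 against 362 and 293. FOXC1 was higher in HCT116 (2595 and 1836 against 147 and 207).

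The hexamer CACCTG is the core of the E-boxes to which SNAI and ZEB proteins are known to bind, so promoters were searched for it on both strands, from 250 bases before to 50 bases after the start of the canonical transcript on GRCh37. It was found in 31.3% of 319 promoters of genes higher in HCT116 and in 30.2% of 1273 of the HCT116 tables only. In the genes higher in RPE1 it was in 14.8% of 310, in those of the RPE1 tables only in 15.8% of 651, in genes called neither in 17.7% of 11741, and in all promoters in 19.3% of 15501. Promoters differ in base composition, with a median G+C content of 70.3% for the genes higher in HCT116, 65.7% for those higher in RPE1 and 66.3% for neither. Within promoters of 65% to 75% G+C the shares were 29.8%, 22.5% and 18.8%, and within those of 55% to 65% they were 30.6%, 13.0% and 17.8%. Of the 16 general epithelial genes 14 had the hexamer, of the 38 junction and polarity genes 25, and of the 20 mesenchymal genes 3. A match is a description of the sequence, and binding was not measured.

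To show the sites, the 150 bases before the RefSeq start (GRCh38.p14) are given for 4 epithelial genes of the HCT116 side, all on the + strand, with the hexamer or its reverse complement in capitals. They are RAB25 (chr1:156061010-156061159), ELF3 (chr1:202010437-202010586), the polarity gene CRB3 (chr19:6464121-6464270; 230.3 and 302, HCT116 tables only) and CDS1 (chr4:84582977-84583126; 437 and 628 against 24.7 and 52.6), an enzyme of phosphatidic acid metabolism. CRB3 holds 3 sites in this stretch, at 60 to 147 bases before the start, and the other genes 1 each, at 41, 120 and 27 bases.
RAB25: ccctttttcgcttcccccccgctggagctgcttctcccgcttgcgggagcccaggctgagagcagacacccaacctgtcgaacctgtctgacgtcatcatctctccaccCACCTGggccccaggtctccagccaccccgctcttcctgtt
ELF3: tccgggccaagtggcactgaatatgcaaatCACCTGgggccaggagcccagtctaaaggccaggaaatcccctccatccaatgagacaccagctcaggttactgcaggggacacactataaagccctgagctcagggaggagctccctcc
CRB3: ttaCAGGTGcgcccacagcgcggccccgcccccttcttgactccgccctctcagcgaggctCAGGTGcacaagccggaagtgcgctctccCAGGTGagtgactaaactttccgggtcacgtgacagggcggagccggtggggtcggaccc
CDS1: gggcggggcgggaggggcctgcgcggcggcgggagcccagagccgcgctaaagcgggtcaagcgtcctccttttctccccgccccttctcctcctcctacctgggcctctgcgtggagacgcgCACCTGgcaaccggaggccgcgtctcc

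Other sequence features of the promoters differed as well. A CpG-rich promoter, with at least 50% G+C and an observed to expected CpG ratio of at least 0.6, was found for 85.0% of genes called neither, 72.1% of those higher in HCT116, 60.6% of those higher in RPE1, and 49.5% and 52.4% of those of the HCT116 and RPE1 tables only. The AP-1 site TGANTCA, where N is any base, searched on both strands, was in 6.77% of promoters of genes higher in RPE1, 4.39% of those higher in HCT116, 3.77% of neither and 4.59% of all promoters, and it was in 6.99% of those of the HCT116 tables only and 7.83% of those of the RPE1 tables only. Among promoters that were not CpG-rich it was in 13.9% of 122 of genes higher in RPE1, 6.74% of 89 higher in HCT116, 10.6% of 643 of the HCT116 tables only, 12.9% of 310 of the RPE1 tables only and 9.57% of 1766 of neither. A TATAAA box on the strand of the gene, 20 to 45 bases before the start, was in 4.52% of the promoters of genes higher in RPE1, 3.13% of those higher in HCT116, 4.87% and 3.84% of those of the HCT116 and the RPE1 tables only, 1.64% of neither and 2.49% of all promoters. GJA1 (chr6:121435496-121435645) and GPNMB (chr7:23246625-23246774; 35.5 and 49.3 against 6982 and 4980), a glycoprotein of pigment cells and macrophages, are shown with the AP-1 site in capitals, 48 and 134 bases before the start.
GJA1: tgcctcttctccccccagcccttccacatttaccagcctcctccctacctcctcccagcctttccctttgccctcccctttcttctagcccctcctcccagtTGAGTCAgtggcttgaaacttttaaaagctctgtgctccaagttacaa
GPNMB: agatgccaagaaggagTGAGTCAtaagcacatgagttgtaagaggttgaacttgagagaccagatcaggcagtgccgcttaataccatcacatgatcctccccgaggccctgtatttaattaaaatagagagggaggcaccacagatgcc

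**Figure D4:**
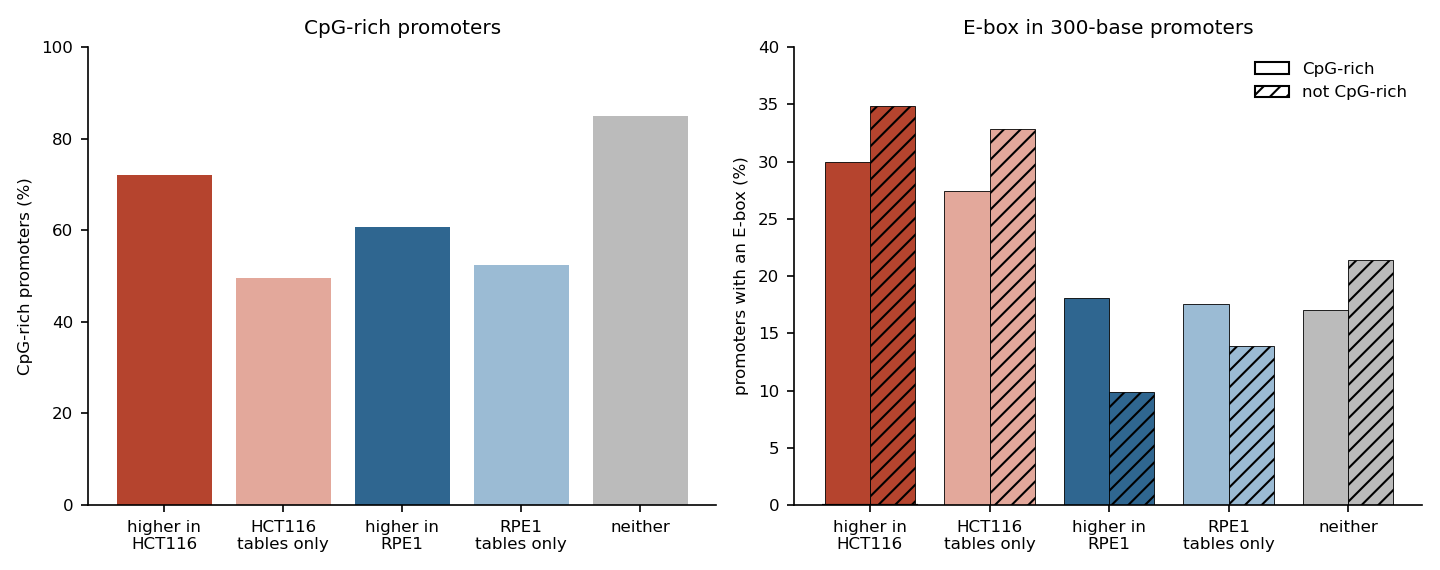
The left panel gives the share of CpG-rich promoters (%) in each class of genes, and the right panel the share of promoters with the E-box hexamer (%), separately for CpG-rich promoters (plain bars) and others (hatched bars). In the right panel both HCT116 classes stand between 27.5% and 34.8%, and both RPE1 classes and neither between 9.84% and 21.4%.

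Matrix genes were prominent in RPE1. Of 35 glycoproteins and crosslinkers listed in any table, 12 were higher in RPE1, 3 were listed in RPE1 only and 1, FBLN1 (773 and 539.7), in HCT116 only, and the median difference of the 24 shared genes was -3.74. Thrombospondin THBS1 had 2598 and 557 against 92668 and 158480, SPARC had 539.5 and 233 against 42427 and 53239, and the basement membrane linker NID2 had 29.4 and 23.1 against 3822 and 4361. FBN2 was 438 and 2.11 against 2934 and 2844, with 7.70 log2 units between the HCT116 tables.

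Collagens were mixed. Of 36 genes, 4 were higher in RPE1 (COL4A1, COL5A2, COL6A3 and COL14A1) and 2 in HCT116, COL9A3 (1815 and 861 against 7.12 and 6.31) and COL9A2 (149 and 148 against 15.6 and 9.01), both chains of the cartilage collagen IX. COL5A2 had 59.7 and 69 against 5183 and 8129. COL4A2, the partner of COL4A1 in collagen IV, had 10.7 in HCT116 5/4 and 15140 and 28437 in RPE1. COL6A2 was 3886 and 2903 against 3.31 and 6680, the widest difference between the RPE1 tables of all genes (10.98 log2 units). Its partner COL6A1 was 6047 and 3577 against 695 and 7091. Both lie on chromosome 21, which is gained in RPE1* 21/3. The part of the gain was not tested, and the RPE1 tables differ in H2B-GFP and clone as well. Of 12 laminins LAMA4 was higher in RPE1 (16.1 and 17.7 against 8899 and 7293) and LAMC3 was listed in HCT116 only (393 and 331). Of 28 genes in the integrin list 17 were neither, and 3 and 2 were listed in HCT116 and in RPE1 only. ITGB4, the hemidesmosome subunit, was higher in HCT116 (18951 and 13467 against 1284 and 1073). ITGA5, the fibronectin receptor subunit, was higher in RPE1 (1229 and 1573 against 24541 and 30532), beside ITGA7 and the integrin-like gene ITGBL1.

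Contractile and cytoskeletal genes showed 9 of 23 higher in RPE1 and none in HCT116, with 1 in RPE1 only and 13 neither. Tropomyosin TPM1 had 453 and 442 against 34737 and 53376, the myosin light chain kinase MYLK had 238 and 198 against 20930 and 23667, and smooth muscle actin ACTA2 had 153 and 192 against 5081 and 7267. The receptor kinase AXL had 1444 and 1224 against 25465 and 32305. The filament gene NES was 1156 and 783 against 172 and 264, with both HCT116 tables on top, and ACTB, used as a housekeeping gene, was 45876 and 55663 against 139564 and 170270.

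HOX genes lay on the HCT116 side as well. Of 11 HOXA genes, 9 were listed in HCT116 only, and HOXA3 and HOXA5 in 3 tables. HOXA10 had 743 and 707, HOXA9 335 and 259.8 and HOXA13 142 and 121. Of 8 HOXC genes 7, and of 5 HOXD genes 3, were listed in HCT116 only. In the HOXB cluster the RPE1 tables did list values, and HOXB8 (1532 and 773 against 4.35 and 13.5), HOXB7 (1053 and 751 against 6.49 and 45.6), HOXB4 (607 and 359 against 4.98 and 18.4) and HOXB5 (394 and 235 against 20.1 and 23.7) were higher in HCT116, while HOXB3, HOXB6 and HOXB9 were neither. HOXB13, the most posterior of them, was listed in HCT116 only (278 and 331). In no HOX gene of the 4 clusters was RPE1 called higher.

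Of 16 transcription factors of the eye field and of pigment cells 10 were listed, and 5 of these lay on the RPE1 side. SIX3, which patterns the forebrain and the eye, had 47.5 and 54.3 against 2898 and 2340, PAX6 had 100.1 and 78.7 against 1180 and 868, and OTX2 and TFEC (19.8 and 22.2) were listed in RPE1 only. OTX1 was higher in HCT116 (443 and 346 against 26.5 and 27.9), and LHX2 was 243 and 201 against 55.3 and 8.44. Of the 10 listed factors 3 were higher in RPE1, 2 were listed there only, 1 was higher in HCT116 and 4 were neither. Of 18 listed factors of gut endoderm only 8 were shared, and none of these was called. Over all shared genes 2.48% and 2.43% were called, so that no call among 8 genes is near the share of all. Of the 18, 6 were listed in HCT116 only, beside 8.57% of all genes, among them PDX1 (47.2 and 46.4) and FOXA3 (119 and 112). GATA6 was 208 and 171 against 516 and 807.

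**Figure D5:**
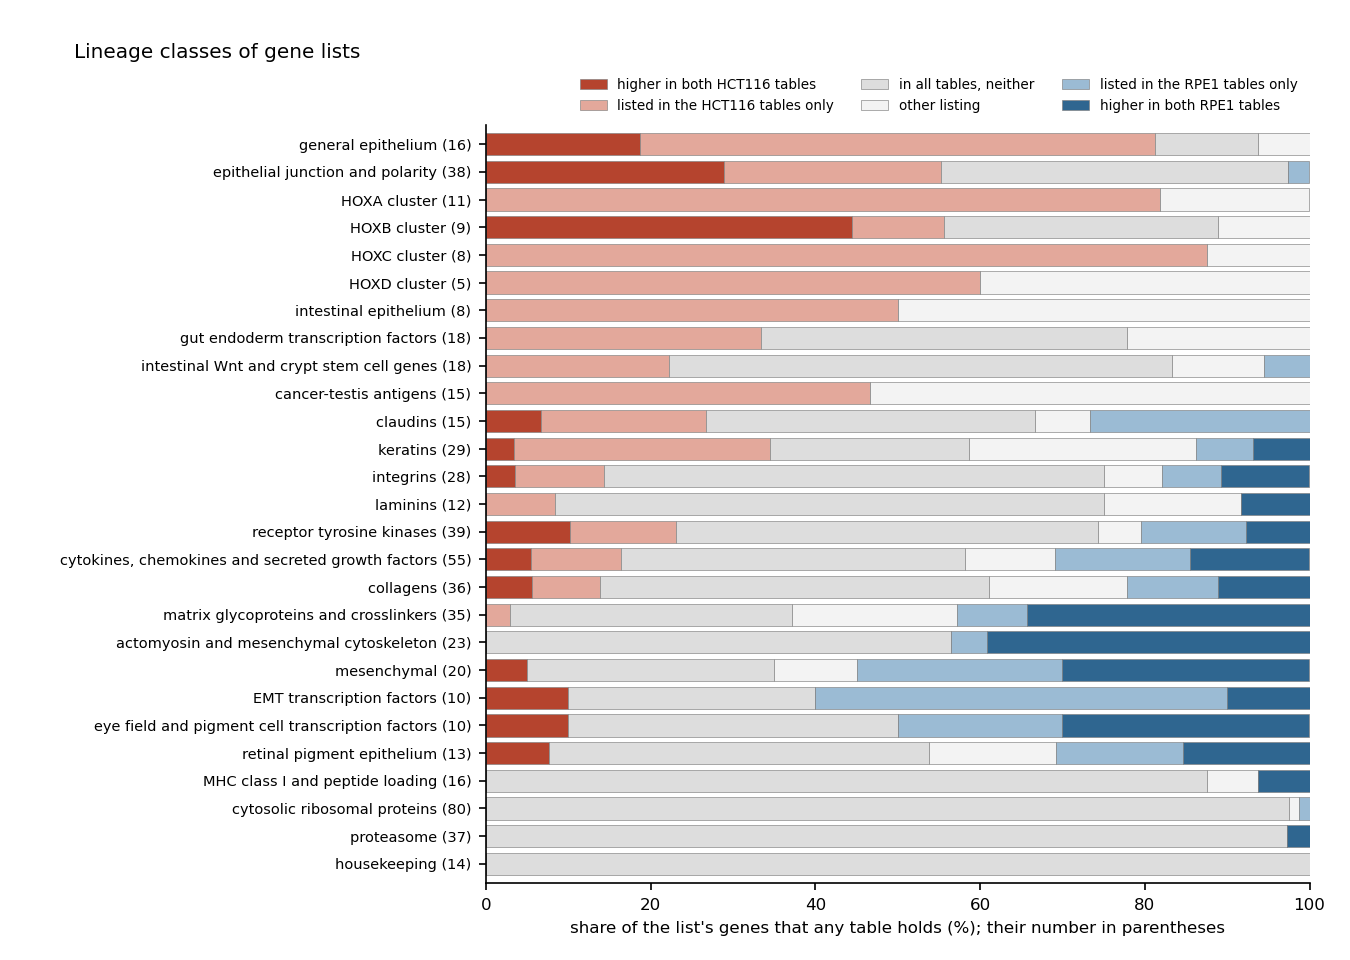
Bars divide the genes of each list that any table holds into classes (%), with their number in parentheses. Epithelial and HOX lists are mostly red (HCT116), matrix, cytoskeletal and mesenchymal lists hold most of the blue (RPE1), and ribosomal, proteasome and housekeeping lists are nearly all grey.

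Of 39 listed receptor tyrosine kinases 20 were neither, 4 were higher in HCT116 and 3 in RPE1, and 5 were listed in each lineage only. The median difference of the 27 shared kinases was -0.08 log2 units. Higher in HCT116 were FGFR4, FGFR3 (977 and 933 against 7.41 and 6.26), MST1R (1260 and 1378 against 7.96 and 12.2) and ERBB3 (909 and 1244 against 14.9 and 21), and FGFR2 (523 and 546), RET (314 and 292), ROR2, LTK and FLT4 were listed there only. Higher in RPE1 were PDGFRB, AXL and DDR2 (17 and 10.5 against 2807 and 2755), the collagen receptor, and PDGFRA, EPHA5 (878 and 841), ERBB4, EPHA3 and TEK were listed there only. EGFR (1709 and 1842 against 4594 and 3250), ERBB2 (2453 and 2861 against 2165 and 2565), MET and FGFR1 were neither. DDR1 had 3103 and 3090 against 3126 and 3121, within 0.1 log2 units in all tables.

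Of 55 listed ligands and their antagonists, 3 were higher in HCT116 and 8 in RPE1, with 6 and 9 listed in one lineage only. AREG, a ligand of EGFR, had 1487 and 4654 against 12.7 and 14.1, and FGF19, a hormone of the gut, was listed in HCT116 only (1656 and 699). In RPE1, TGFB2 had 58.4 and 8.71 against 6607 and 12158, FGF2 142 and 122 against 3137 and 5274 and CSF1 144 and 91.1 against 3087 and 2462. The chemokine CCL2 (978 and 1848), VEGFC (1301 and 1093) and the interleukins IL1B (483 and 284) and IL6 (84.6 and 96.7) were listed in RPE1 only, and IL18 (620.2 and 1522) in HCT116 only. LIF (2747 and 1906 against 3176 and 3248) was neither.

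Genes of the Wnt pathway and the intestinal crypt had a median difference of 1.19 over 11 shared genes. None of the 11 was called, which is near the shares of all shared genes (2.48% and 2.43%). AXIN2, a feedback target of the pathway, was 1285 and 775 against 101 and 57.7 and missed the threshold by its lower HCT116 value. NKD1 (452 and 247), SP5 (82.8 and 34.8), RNF43 and PROM1 were listed in HCT116 only, and LEF1 (209 and 158) in RPE1 only. LGR5, the marker of crypt stem cells, was listed in RPE1 5/3 12/3 alone, at 3.56.

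Cancer-testis antigens were listed in HCT116 only for 7 of 15 genes, with MAGEA3 (1576 and 1784) and MAGEA6 (334 and 391), near-identical copies between which reads may be divided wrongly. In the presentation of antigens by MHC class I, 14 of 16 genes were neither and the immunoproteasome subunit PSMB8 was higher in RPE1 (5.05 and 1.81 against 683 and 571), while PSMB9 was 129 and 45.8 against 213 and 77.8. Among enzymes of detoxification, the transporter ABCC2 was higher in HCT116 (3666 and 7599 against 22.4 and 25) and CYP1B1 (71.6 and 36.2 against 5175 and 3919) and GSTM1 (20.4 and 17.8 against 485 and 505) in RPE1, with 23 of 37 neither, and the DNA repair enzyme MGMT was listed in HCT116 only (249 and 239.5). As a background, 78 of 80 ribosomal protein genes, 36 of 37 proteasome genes and 14 of 14 housekeeping genes were called neither.

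Of 6 markers of blood cells 3 were listed in any table, of 5 endothelial markers 4, of 5 neuronal markers 4 and of 5 liver markers 1. PTPRC, the pan-leukocyte marker, was listed in RPE1 only at 6.8 and 13.1, ALB and APOA1 were in no table, and of the endothelial markers KDR was 4.33 and 3.92 against 58.6 and 24 and PECAM1 was listed in RPE1 5/3 12/3 alone at 14.5. The neuronal genes SYT1 (1765 and 2325 against 3027 and 1919) and TUBB3 (4300 and 3155 against 5546 and 3965) were neither.

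Lineage-specific genes were not spread evenly over the chromosomes. Of the shared genes, 4.68% on chromosome 19, 4.19% on chromosome 17 and 4.08% on chromosome 22 were higher in HCT116, compared with 2.48% of all. On chromosome 5, 30 of 554 genes were higher in RPE1 (5.42%, compared with 2.43% of all) and 6 in HCT116 (1.08%). The 30 include 5 PCDHB and 3 PCDHG genes, families among whose members reads may have been divided wrongly. Chromosome 5 is gained in 1 line of each lineage. The median difference of all shared genes of chromosome 8, gained in HCT116* 8/3 c7 only, was 0.46 log2 units, and that of chromosome 12, gained in RPE1 5/3 12/3 only, was -0.23, and the part of the gain in these was not tested. Without chromosomes 5, 8, 12 and 21, 293 and 257 genes were called.

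Neighbouring genes of one class also formed runs, counted over listed genes in their order on GRCh37. There were 56 runs of at least 3 genes of the HCT116 classes and 37 of the RPE1 classes. The longest was the HOXA cluster, 9 genes from HOXA6 to HOTTIP at chr7:27185015-27246878. On chromosome 11, a run of 7 genes at chr11:5269499-5526882 joined the fetal and embryonic globins HBG1, HBG2 and HBE1 (1469 and 1856) with olfactory receptor genes of the same locus, in the HCT116 tables. Kallikreins KLK1 and KLK4 to KLK8 gave 6 genes at chr19:51322402-51505967, and of 11 listed kallikreins 8 were listed in HCT116 only, with KLK6 at 541 and 890.5. CLDN3 and CLDN4 were neighbours in a run of 4 genes at chr7:73183327-73280220.

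Some runs of the RPE1 classes were made of paralogues, as were the HOXA and kallikrein runs of HCT116. Others joined unlike genes, such as the run from ANTXR2 to BMP3 on chromosome 4. A run of 8 zinc finger genes from ZNF542 to ZNF71 lay at chr19:56884619-57137849, and further runs of 6, 5 and 5 lay on the same chromosome. Among 223 listed ZNF genes of chromosome 19, which were looked up after the runs had been seen, 51 were listed in RPE1 only and 2 were higher there (23.8%), against 3 in HCT116 only. Among the 258 ZNF genes of other chromosomes these were 17 and 0 (6.59%), and among all genes 6.25%. Protocadherins of chromosome 5 gave a run of 6 at chr5:140588269-140628933, with 13 of 18 PCDHB, 11 of 23 PCDHG and 5 of 14 PCDHA genes in the RPE1 classes, and 2 PCDHA genes in HCT116 only. Since genes of these families resemble each other, and PCDHG genes share exons, reads may have been divided wrongly among them.

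Some lineage-specific genes carry a microRNA in their span, and the RNA measured here is the host and not the mature microRNA. A hairpin on the same strand lay in 10 of 320 genes higher in HCT116 (3.13%), 14 of 310 higher in RPE1 (4.52%), 30 of 1311 and 29 of 663 of those listed in one lineage only, and 428 of 11893 called neither (3.60%). On the HCT116 side, MIR196B was itself listed in the HCT116 tables only (67.4 and 39.1) and lies in the span of HOXA9, MIR196A1 in that of HOXB7 and MIR196A2 in that of HOXC6 (152 and 60.3). MIR378A lies in PPARGC1B (316 and 525 against 13.3 and 20.4) and MIR135B in LEMD1 (59.4 and 58.4, HCT116 tables only). On the RPE1 side, MIR31 lies in its host MIR31HG (91.4 and 55.8 against 1364 and 1137), MIR335 in the imprinted gene MEST (474 and 728 against 6282 and 7501), MIR152 in COPZ2 (542 and 769, RPE1 tables only), MIR204, known from the retinal pigment epithelium, in TRPM3 (50.2 and 33.2, RPE1 tables only), and MIR708 in ODZ4 (1092 and 843, RPE1 tables only).

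The mature sequences of these microRNAs are given from RefSeq (GRCh38.p14), with the seed, bases 2 to 8, in capitals, since the seed sets which mRNAs a microRNA can pair with. The 5p arms of the 3 MIR196 genes share 1 seed, and the other arms printed have seeds of their own. The mature miR-196b-5p lies at chr7:27169528-27169549 (- strand), miR-378a-3p at chr5:149732867-149732888 (+ strand), miR-31-5p at chr9:21512158-21512178 (- strand) and miR-204-5p at chr9:70810031-70810052 (- strand).
miR-196a-5p: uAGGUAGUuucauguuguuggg
miR-196b-5p: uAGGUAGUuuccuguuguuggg
miR-378a-3p: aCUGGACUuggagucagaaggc
miR-135b-5p: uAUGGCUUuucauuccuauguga
miR-31-5p: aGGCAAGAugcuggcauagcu
miR-335-5p: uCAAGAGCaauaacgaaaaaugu
miR-152-3p: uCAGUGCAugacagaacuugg
miR-204-5p: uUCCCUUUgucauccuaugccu
miR-708-5p: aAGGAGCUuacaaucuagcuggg

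Called genes also differed in length. The exons of genes higher in RPE1 covered a median of 6206 bases, those of genes higher in HCT116 4766, and those of neither 5352, while genes listed in HCT116 only had 3794 and those in RPE1 only 4924. The scaled means are not divided by length, so that their order over genes is not an order per length. Only the percentiles per kb of exon given above allow for length. The lengths merge the exons of all GENCODE transcripts of a gene, whereas the authors counted reads on RefSeq models. Lengths and percentiles therefore also depend on how many transcripts are annotated.

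Agreement of the 2 tables of a lineage varied among the called genes. In the genes higher in HCT116 the HCT116 tables differed by a median of 0.31 log2 units and at most 1.93, in DUSP2, a phosphatase of MAP kinases (238 and 906 against 9.0 and 14.5). In the genes higher in RPE1 the RPE1 tables differed by a median of 0.34 and at most 2.15, in BMPER (3.72 and 2.27 against 31.7 and 141). The lineage in which a gene was low varied more, up to 6.14 in DLC1, a tumour suppressor on chromosome 8 (8.36 and 588 against 5064 and 5672). IGFBP3 had 61 and 61.9 against 3610 and 14675 and CBS, an enzyme of sulfur metabolism on chromosome 21, 3.13 and 2.04 against 547 and 1825, both higher in the RPE1* 21/3 table than in the RPE1 5/3 12/3 table. The part of a gained chromosome in these differences was not tested.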

How the data were processed

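Poly(A) RNA of 24 libraries, 3 for each of 8 lines, was sequenced by the authors as single reads of 100 bases, with about 25000000 reads planned for a library. Per the labels and the study's methods, reads were trimmed with cutadapt, aligned to hg19 (GRCh37) with TopHat2 2.0.10, counted per gene with featureCounts 1.4.3 and compared with DESeq2, whose version is not given in the sources used here. The 4 deposited tables each hold 1 row per gene for an aneuploid line and its parent. The signal analysed here is their column of base means, the mean of the counts of 6 libraries that the authors normalized by DESeq2 size factors before deposit. The other columns hold the authors' fold changes, their errors, test statistics and p-values, and none was used. Depth of single libraries was not analysed here, so no interval, SD or test is given. Strand handling of the counting is not stated, hence overlapping genes cannot be told apart.

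Genes of the 4 tables were joined on their symbol. Each table was multiplied by a factor (0.931, 0.905, 0.992 and 1.20) that gave it the common median of 564 over the 13104 genes listed in all tables, and log2 was taken without a pseudocount. The gap of a gene is the lower value of one lineage minus the higher value of the other, and the threshold was 3. A set of 4 genes of the sex chromosomes was left out, and some genes that the rule names are not reported here. Positions and exon lengths came from GENCODE on GRCh37 for 14317 genes by symbol and 1474 by a RefSeq synonym, and 947 genes were not placed. Promoters of 300 bases were read from GRCh37 for 92.6% of the genes, and hairpins were matched to gene spans on the same strand. Values per kb of exon were ranked over the genes of its table. Named are, in each direction, the 20 largest gaps among genes at 100 or more in the high lineage, the 3 genes on either side of the threshold, the 10 highest genes listed in 1 lineage only, and members of gene lists. Genes of runs, families, hosts, promoters and tables that split were chosen after their values were seen. Members, lists and threshold were chosen with earlier results of these data known. The code was run on simulated tables, with Python 3.11.15, numpy 2.4.6 and pandas 2.3.3. Those tables held planted differences well above the threshold in genes of higher level, small differences within a lineage and no unlisted genes. The run is a check of the code and not of the calls made here. Alternatives were other scalings, thresholds, pseudocounts, filters, pairs of tables and symbol matching.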

Additional observations from a re-analysis of the deposited data

How the results depend on the processing

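No paired analysis was possible because the values used are means over all 6 libraries of a table, which also meant that no replicate could be left out. The counts of called genes, 325 higher in HCT116 and 319 in RPE1, moved with the threshold, to 606 and 638 at 2 log2 units and to 175 and 190 at 4. With genes that are not listed set to the lowest mean of their table, they became 944 and 813. With only 1 table of each lineage, the rule asks less of a gene. The tables of H2B-GFP cells then gave 486 genes higher in RPE1 and 431 in HCT116. Those without H2B-GFP gave 403 in RPE1 and 466 in HCT116. Of the 1434 genes listed in the HCT116 tables only, 796 had levels of 10 or more, and of the 727 in RPE1 530. Other scalings gave 320 to 386 genes in HCT116 and 260 to 324 in RPE1. No scaling moved the median difference of all genes from 0.03 to 0.28 log2 units. Pseudocounts of 1 and 10 gave 314 and 240 in HCT116 and 308 and 261 in RPE1. Other thresholds, scalings, pseudocounts and filled values change the rule itself. With 1 table of each lineage, the part of the clone, the stock of cells and the H2B-GFP transgene in the changes was not tested. The mean of a table carries no error, so a level near the lowest listed mean, in particular under 10, is the least certain. The clones, the H2B-GFP transgene and the stock of HCT116 cannot be separated from a table.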

Other observations

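Some genes were set apart within a lineage. TM4SF18 had 1105 in the HCT116 5/4 table and 3.73 in the HCT116* 8/3 c7 table, with 828 and 394 in RPE1. HAS2, a hyaluronan synthase, had 389 and 2.15 in HCT116 and 54.4 and 34.9 in RPE1. Genes listed in 1 table alone numbered 96 for HCT116 5/4, 498 for HCT116* 8/3 c7, 127 for RPE1 5/3 12/3 and 52 for RPE1* 21/3. Their median levels were 4.58, 2.85, 4.95 and 6.08. These counts are not alike, since HCT116* 8/3 c7 is listed down to 1.80 and the others only to 3.13, 3.22 and 3.89. The median of its 498 genes is under the lowest mean of every other table. MAGEB1 at 252 was listed in HCT116 5/4 alone.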
